A study of Mus musculus with 4 samples.

Results

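The 10 epithelial claudin genes described here were Cldn1, Cldn2, Cldn3, Cldn4, Cldn6, Cldn7, Cldn10, Cldn12, Cldn18 and Cldn23, taken by symbol from read counts for 24391 genes. All 10 were listed, and all 10 were among the 16001 genes that passed a filter on low counts. The members were chosen as claudins of lung and gut epithelium, and Cldn5, the claudin of endothelium, was set apart from them. RNA was sequenced from 4 mouse lung tumour samples in 2 groups of 2. The group labelled K-Ras carried the K-RasLSL-G12D allele, a mutant K-Ras that stays silent until a stop cassette is recombined. The group labelled K-Ras Mll4-/- carried the same allele together with Mll4fl/fl, floxed alleles of the gene now named Kmt2d, whose product methylates histone H3 mainly at enhancers. All tumours were depleted of cells bearing the leukocyte antigen CD45 before RNA was extracted. The Cre that recombines the alleles, the cells in which it acts, the age of the mice and whether replicates came from different mice are not given in the sources used here, so p-values measure only the spread between these samples.

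Claudins are membrane proteins that span the membrane several times and pair with claudins of the neighbouring cell to form the strands of the tight junction. The mixture of claudins in a cell sets how leaky the junction is and to which ions: some members seal the space between cells, and others form pores. Cldn3, Cldn4 and Cldn18 are the main claudins of the alveolar epithelium of the lung, and Cldn2 forms a pore for cations and water that is known from kidney and gut.

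Between 26683033 and 36677987 reads were assigned to genes in each library, and the groups overlapped in depth. Kmt2d was at 395 and 526 CPM in the K-Ras libraries and at 367 and 317 CPM in the K-Ras Mll4-/- libraries, a difference that did not pass the test (edgeR adjusted p = 0.302). A total per gene cannot show the removal of single exons, so the Mll4 genotype rests on the labels. CPM are counts scaled to a common library size, counted here after TMM scaling, which evens out libraries by a trimmed mean of their gene-wise ratios. Markers of alveolar type 2 cells, the surfactant-producing cells of the lung, summed to 18600 and 30530 CPM in the K-Ras libraries. In the K-Ras Mll4-/- libraries they summed to 24963 and 26286 CPM. Of these 8 markers, 1 was higher and 2 lower in both K-Ras Mll4-/- libraries, against 29.9% and 28.5% of all tested genes. The tissue label was thus matched by abundant lung epithelial transcripts in all 4 libraries.

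Cldn6, Cldn2, Cldn18, Cldn7 and Cldn12 were higher in both K-Ras Mll4-/- libraries than in both K-Ras libraries, with fitted differences between 1.58-fold for Cldn12 and 9.05-fold for Cldn6. Cldn3, Cldn4 and Cldn23 were lower in both K-Ras Mll4-/- libraries. Cldn1 and Cldn10 overlapped between the groups. None of the 10 differences passed the main test: the edgeR quasi-likelihood test called 0 of the 10 at an adjusted p under 0.05, where it called 0.0375% of all tested genes. At an unadjusted p under 0.05 it counted 7 of the 10, 5 higher and 2 lower, against 21.8% of all tested genes, 11.4% higher and 10.4% lower. The groups did not overlap in 8 of the 10, 5 higher and 3 lower, against 58.3% of all tested genes, 29.9% higher and 28.5% lower. The median log2 fold change was 0.65 over the 10 claudins and -0.01 over all tested genes, and the median size of the log2 fold change without its sign was 0.99 and 0.33. The median over the claudins depended on single libraries: it was 1.13 without K-Ras replicate 2 and 0.28 without K-Ras Mll4-/- replicate 1. The number called depended on the test. DESeq2 called 5 claudins (Cldn2, Cldn6, Cldn7 and Cldn18 higher and Cldn4 lower), where it called 10.0% of all tested genes, 5.02% higher and 4.98% lower. The edgeR likelihood ratio test called the same 5, with 9.39% of all tested genes called, and limma-voom called 0, with 0.0% of all tested genes. Without K-Ras replicate 1, the quasi-likelihood test called Cldn2 and Cldn6 (edgeR adjusted p = 0.0466 and 0.0499), where it called 3.2% of all tested genes, 528 in number against 6 with all libraries. Without any of the other 3 libraries in turn it called 0 claudins, and 0.0% of all tested genes.

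**Figure D1:**
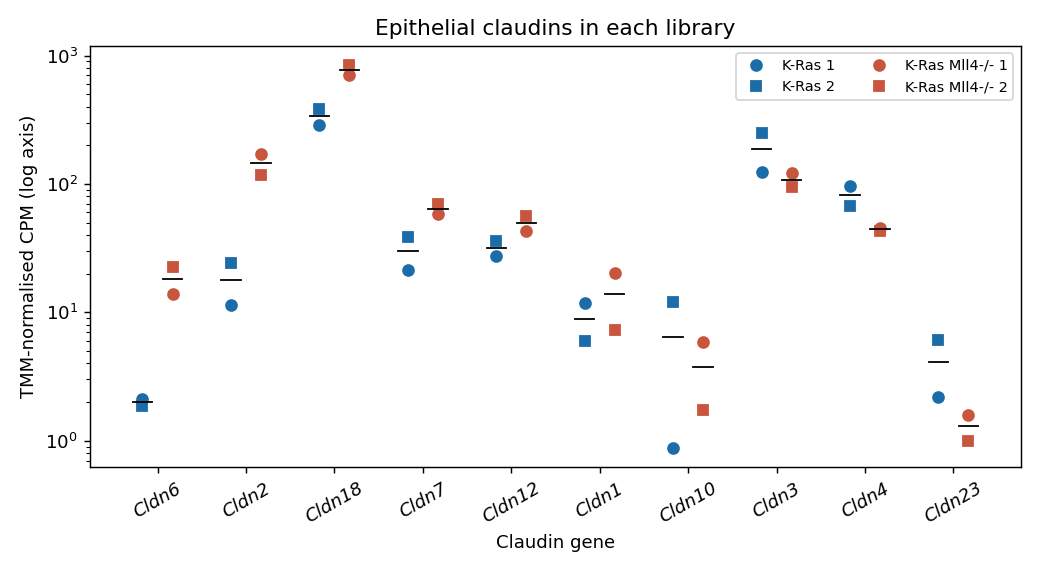
TMM-normalised CPM (log axis) of the 10 claudins in each of the 4 libraries; blue marks are K-Ras, red marks are K-Ras Mll4-/-, circles are replicate 1, squares are replicate 2, and bars are group means. The red marks of Cldn6 and Cldn2 lie far above the blue ones (Cldn2 at 117 and 172 CPM against 11.5 and 24.3 CPM), and those of Cldn1 and Cldn10 overlap them.

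Cldn18, a claudin of alveolar and gastric epithelium, was the most abundant member in reads. It was at 290.0 and 384 CPM in the K-Ras libraries and at 709 and 843 CPM in the K-Ras Mll4-/- libraries. The groups lay well apart, and the means were 337 ± 66.8 and 776 ± 94.8 CPM (SD, n = 2 each). The log2 fold change was 1.20 (SE 0.22, edgeR adjusted p = 0.147), which is 2.30-fold. Cldn18 is known to be transcribed from a pair of start sites, one used in lung and the other in stomach, and counts per gene add both. The RefSeq promoter table (GRCm38.p6) gives 2 starts for Cldn18, and the 250 bases before each are shown because the counts do not tell which start was used. The first window is chr9:99717268-99717517 on the minus strand and the second is chr9:99710064-99710313 on the minus strand, and which of them is the lung start was not assigned here. Neither window holds TGANTCA (the AP-1 motif), CTCAAG (a core of NKX2-1 sites) or TATAAA, searched on both strands.
Cldn18 first start: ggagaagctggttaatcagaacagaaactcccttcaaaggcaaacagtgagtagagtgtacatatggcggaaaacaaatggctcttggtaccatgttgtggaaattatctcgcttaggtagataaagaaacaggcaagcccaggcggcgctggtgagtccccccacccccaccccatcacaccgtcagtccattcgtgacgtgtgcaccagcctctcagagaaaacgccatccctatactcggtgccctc
Cldn18 second start: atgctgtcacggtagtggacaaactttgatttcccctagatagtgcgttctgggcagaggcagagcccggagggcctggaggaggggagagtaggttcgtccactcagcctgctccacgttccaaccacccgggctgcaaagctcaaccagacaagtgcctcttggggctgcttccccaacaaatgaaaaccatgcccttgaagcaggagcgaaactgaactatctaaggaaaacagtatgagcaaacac

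Cldn3, a sealing claudin of most simple epithelia, was at 124 and 247 CPM in the K-Ras libraries and at 121 and 93.9 CPM in the K-Ras Mll4-/- libraries. The nearest values of the groups, 124 and 121 CPM, differed by little, and K-Ras replicate 2 stood high. The log2 fold change was -0.79 (SE 0.37, edgeR adjusted p = 0.293), and it was -0.22 without K-Ras replicate 2. Cldn4, its neighbour in the genome and a barrier claudin of the same epithelia, was at 96.3 and 67.0 CPM in the K-Ras libraries and at 45.8 and 43.3 CPM in the K-Ras Mll4-/- libraries. Here the lower K-Ras value came from replicate 2, the library in which Cldn3 was highest, and the groups did not overlap. The log2 fold change of Cldn4 was -0.88 (SE 0.21, edgeR adjusted p = 0.166), so the K-Ras level was 1.83-fold that of K-Ras Mll4-/- tumours.

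The number of Cldn3 reads per Cldn4 read was 1.29 and 3.69 in the K-Ras libraries and 2.64 and 2.17 in the K-Ras Mll4-/- libraries, so this ratio overlapped between the groups. The number of Cldn18 reads per Cldn3 read did not overlap. It was 2.33 and 1.55 in the K-Ras libraries and 5.87 and 8.97 in the K-Ras Mll4-/- libraries. Ratios within a library do not depend on how libraries are scaled. The promoter window of Cldn4, chr5:134946935-134947184 on the minus strand (RefSeq, GRCm38.p6), is shown because it is the only window among those of the 10 claudins that holds TGANTCA, here on 2 occasions, in capitals. Of all 32851 RefSeq windows of this length, 6.75% hold it, and a match describes the letters and not a bound site.
Cldn4: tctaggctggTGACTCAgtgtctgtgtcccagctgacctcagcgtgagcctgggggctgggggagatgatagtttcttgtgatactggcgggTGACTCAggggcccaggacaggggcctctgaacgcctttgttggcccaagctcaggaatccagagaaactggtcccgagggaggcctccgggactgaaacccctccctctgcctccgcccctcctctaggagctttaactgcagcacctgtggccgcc

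Cldn2, the pore-forming claudin, was at 11.5 and 24.3 CPM in the K-Ras libraries and at 172 and 117 CPM in the K-Ras Mll4-/- libraries. The K-Ras Mll4-/- libraries held 4514 and 3781 Cldn2 reads, against 352 and 877. The log2 fold change was 3.01 (SE 0.44, edgeR adjusted p = 0.138), which is 8.07-fold, and the replicates within each group also differed from each other. The number of Cldn2 reads per Cldn4 read was 0.119 and 0.362 in the K-Ras libraries and 3.76 and 2.71 in the K-Ras Mll4-/- libraries, so Cldn4 outnumbered Cldn2 in reads in both K-Ras libraries and the order was turned in the other 2. Cldn10, which forms ion-selective pores, did not follow Cldn2. It was at 0.883 and 12.1 CPM in the K-Ras libraries and at 5.83 and 1.74 CPM in the K-Ras Mll4-/- libraries, and the replicates differed more than the groups. Its fitted log2 difference, -0.78 with SE 1.27 (edgeR adjusted p = 0.746), turned to 2.07 without K-Ras replicate 2. The window before the Cldn2 start, chrX:139800558-139800807 on the plus strand (RefSeq, GRCm38.p6), is shown because Cldn2 was 1 of the 2 claudins with the largest difference. It holds TATAAA (capitals), which 12.4% of all windows hold. In GENCODE, a second annotation of transcripts, the bases shortly after this start were not found in any Cldn2 transcript. Those after the Cldn4 start and both Cldn18 starts were found in transcripts of their genes. Only a short exact stretch was sought, so the missing match for Cldn2 does not show that GENCODE lacks a start there.
Cldn2: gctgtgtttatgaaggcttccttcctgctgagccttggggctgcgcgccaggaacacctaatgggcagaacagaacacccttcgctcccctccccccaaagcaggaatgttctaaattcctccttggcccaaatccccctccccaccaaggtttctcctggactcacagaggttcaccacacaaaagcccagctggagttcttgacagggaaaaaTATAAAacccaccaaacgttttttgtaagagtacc

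Cldn6, a claudin known from embryonic and fetal epithelium and from some tumours, had the largest fitted difference of the 10. It was at 2.12 and 1.88 CPM in the K-Ras libraries and at 13.9 and 22.4 CPM in the K-Ras Mll4-/- libraries. The K-Ras replicates were close to each other, with 65 and 68 reads, and the K-Ras Mll4-/- libraries held 365 and 722. The log2 fold change was 3.18 (SE 0.33, edgeR adjusted p = 0.116). Cldn9, the next coding gene beside Cldn6 in GRCm38.p6, had 0 reads in both K-Ras libraries and 8 and 1 reads in the K-Ras Mll4-/- libraries, too few to pass the filter. A count of 3 reads, taken as the smallest that shows a transcript and covering counting error only, corresponds to between 0.0830 and 0.114 CPM in these libraries. The window before the Cldn6 start, chr17:23679115-23679364 on the plus strand (RefSeq, GRCm38.p6), is shown as that of the other claudin with a large difference. It holds CTCAAG (capitals), which 13.3% of all windows hold and which, among the windows of the 10 claudins, one of Cldn10 holds as well. As for Cldn2, the bases shortly after this start were not found in any GENCODE transcript of Cldn6. This does not show that GENCODE lacks a start there.
Cldn6: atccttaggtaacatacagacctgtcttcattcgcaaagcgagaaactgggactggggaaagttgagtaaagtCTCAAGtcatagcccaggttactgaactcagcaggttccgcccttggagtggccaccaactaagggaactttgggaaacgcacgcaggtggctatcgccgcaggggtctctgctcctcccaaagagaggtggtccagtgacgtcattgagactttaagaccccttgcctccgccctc

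Windows were found for 9 of the 10 claudins, 14 windows in all. The 3 windows of Cldn12 overlap each other. TGANTCA was in a window of 1 claudin, CTCAAG in windows of 2 and TATAAA in a window of 1. Of all RefSeq windows of this length, 6.75%, 13.3% and 12.4% hold these motifs, so such small counts say little about the claudins. No motif was shared by Cldn2, Cldn6, Cldn7, Cldn12 and Cldn18. These windows cover only the bases just before annotated starts.

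Cldn7, a claudin of the lateral membrane of epithelial cells, was at 21.5 and 38.4 CPM in the K-Ras libraries and at 57.9 and 70.2 CPM in the K-Ras Mll4-/- libraries. All values of one group lay below those of the other, and the log2 fold change was 1.10 (SE 0.32, edgeR adjusted p = 0.186). Cldn12, an atypical claudin that lacks the binding motif by which most claudins reach the scaffold proteins of the junction, was at 27.4 and 35.7 CPM in the K-Ras libraries and at 43.1 and 56.3 CPM in the K-Ras Mll4-/- libraries. Its log2 fold change was smaller, at 0.66 (SE 0.22, edgeR adjusted p = 0.202). Cldn1, the barrier claudin of skin and many epithelia, was at 11.8 and 6.002 CPM in the K-Ras libraries and at 20.4 and 7.29 CPM in the K-Ras Mll4-/- libraries. Replicate 1 was the higher in both groups, and the fitted log2 difference, 0.64 with SE 0.61 (edgeR adjusted p = 0.573), turned to -0.28 without K-Ras Mll4-/- replicate 1. Cldn23, known from intestine and stomach, was at 2.19 and 6.09 CPM in the K-Ras libraries and at 1.60 and 0.993 CPM in the K-Ras Mll4-/- libraries. The highest value was again that of K-Ras replicate 2, and the log2 fold change was -1.68 (SE 0.63, edgeR adjusted p = 0.229), or -0.78 without that library.

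**Figure D2:**
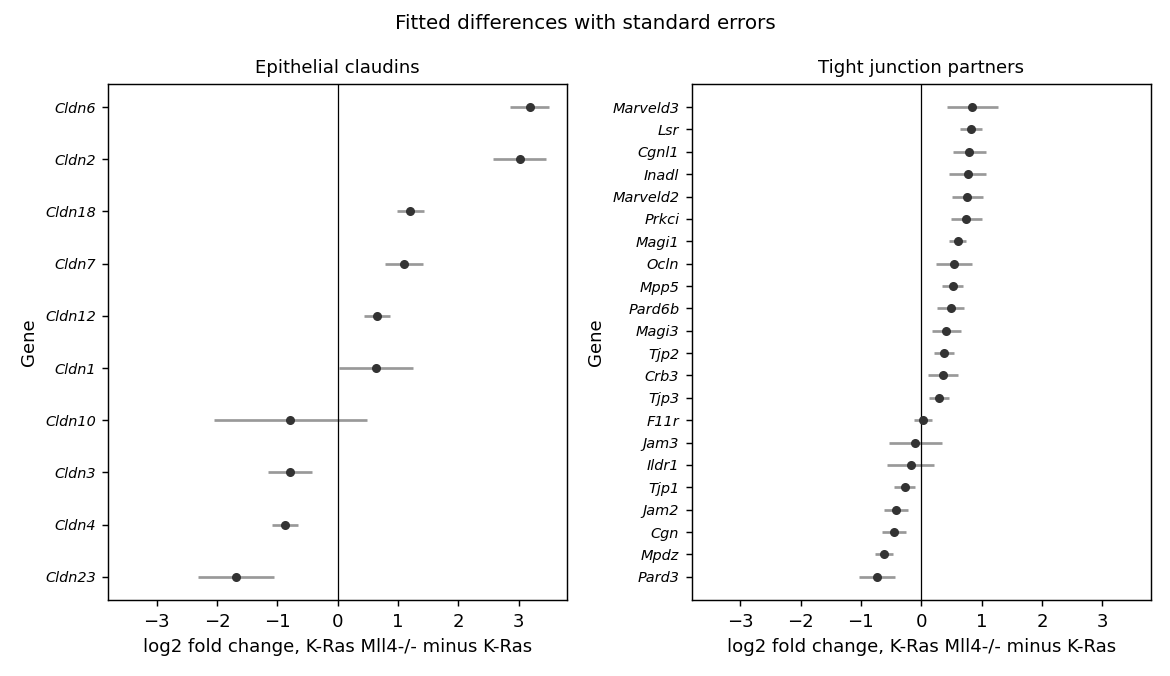
Log2 fold changes, K-Ras Mll4-/- minus K-Ras, of the 10 claudins (left) and of 22 genes of tight junction partners (right), with bars of 1 standard error from the edgeR fit. The claudins spread from -1.68 (Cldn23) to 3.18 (Cldn6), and the partners from -0.73 (Pard3) to 0.85 (Marveld3).

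Levels of different claudins can be compared per length only. CPM were divided by the length of the longest coding transcript of each gene in kilobases. By this measure Cldn3 led in both K-Ras libraries, at 98.7 and 196 CPM per kilobase, and Cldn18 was second at 69.5 and 92.1. In both K-Ras Mll4-/- libraries Cldn18 led, at 169.9 and 202 CPM per kilobase, and Cldn3 was second at 96.0 and 74.6. The order below them also differed. By group mean in K-Ras tumours it ran Cldn4, Cldn7, Cldn12, Cldn2, Cldn10, Cldn1, Cldn23, Cldn6, and from Cldn12 downwards each gene overlapped its neighbour in the order. In K-Ras Mll4-/- tumours it ran Cldn7, Cldn2, Cldn4, Cldn12, Cldn6, Cldn1, Cldn10, Cldn23, where Cldn7 overlapped Cldn2, Cldn12 overlapped Cldn6, and Cldn10 overlapped both Cldn1 and Cldn23.

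As a share of the summed level per length of the 10 claudins, Cldn3 took 38.7% and 51.2% in the K-Ras libraries and 22.8% and 17.6% in the K-Ras Mll4-/- libraries. Cldn18 took 27.3% and 24.0% in the former and 40.4% and 47.7% in the latter. Cldn2 took 1.48% and 2.08%, and then 13.4% and 9.09%. The share of Cldn4 was 20.8% and 9.62%, and then 5.99% and 5.62%. Each of these 4 shares was without overlap between the groups. The place of Cldn18 depends on which transcript sets its length: with the 4172 bases of the longest, Cldn18 was 0.704 and 0.469 times Cldn3 in the K-Ras libraries, and with the 1750 bases of the next it was 1.68 and 1.12 times Cldn3. In the K-Ras Mll4-/- libraries Cldn18 exceeded Cldn3 with either length, at 1.77 and 2.71 times or more.

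**Figure D3:**
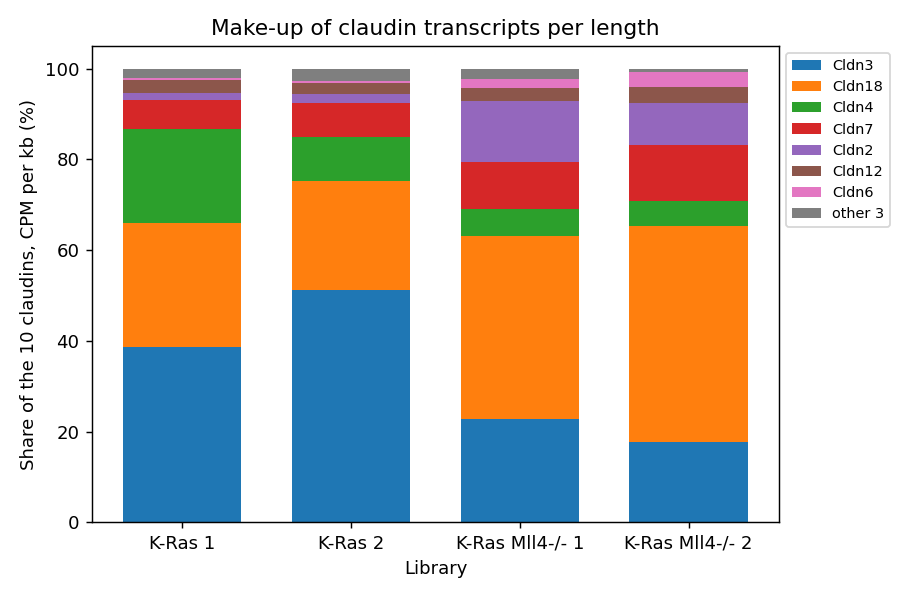
Share of each claudin in the summed level per length (CPM per kilobase of the longest coding transcript) of the 10 claudins, one stacked bar per library, with Cldn1, Cldn10 and Cldn23 drawn together. Cldn3 is the largest share in both K-Ras bars (38.7% and 51.2%) and Cldn18 in both K-Ras Mll4-/- bars (40.4% and 47.7%).

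Markers of epithelial cells lay on the same side as the higher claudins. All 9 epithelial markers (Epcam, Cdh1, Krt7, Krt8, Krt18, Krt19, Esrp1, Grhl2 and Elf3) were higher in both K-Ras Mll4-/- libraries. The same held for 29.9% of all tested genes. The median log2 fold change of the 9 markers was 1.11. The edgeR quasi-likelihood test and limma-voom called 0 of the 9, and 0.0375% and 0.0% of all tested genes. DESeq2 called 8 of the 9, against 10.0% of all tested genes, and the edgeR likelihood ratio test 6, against 9.39%. In the quasi-likelihood test, 8 of the 9 had an unadjusted p under 0.05, against 21.8% of all tested genes. The summed level of the 9 markers was 1082 and 1907 CPM in the K-Ras libraries and 4453 and 4892 CPM in the K-Ras Mll4-/- libraries. None of them was at 0 reads in any library. In bulk tumour RNA, fewer cells of a type and less RNA per cell cannot be told apart. The part of epithelial content in the claudin differences was not tested, but each claudin can be set beside an epithelial marker of its own library.

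Per read of Epcam, an epithelial adhesion gene, Cldn2 had 0.114 and 0.193 reads in the K-Ras libraries and 0.944 and 0.503 in the K-Ras Mll4-/- libraries. Cldn6 had 0.0210 and 0.0150 reads per Epcam read in the former and 0.0763 and 0.0960 in the latter. Both thus remained higher in both K-Ras Mll4-/- libraries when set against Epcam, by 2.22 and 2.27 on the log2 scale. The log2 fold change of Epcam was 0.87, and those of the 9 epithelial markers ran from 0.65 (Grhl2) to 2.51 (Krt7). A marker with a larger rise leaves less of these differences, and ratios to other single markers were not taken. Cldn18 had 2.86 and 3.06 reads per Epcam read, and then 3.89 and 3.61, a smaller difference of 0.34 on the log2 scale. Cldn7 overlapped on this measure, and Cldn12 was lower in both K-Ras Mll4-/- libraries, at 0.237 and 0.241 reads per Epcam read against 0.270 and 0.284. Cldn3 had 1.23 and 1.97 reads per Epcam read in the K-Ras libraries and 0.663 and 0.403 in the K-Ras Mll4-/- libraries, and Cldn4 had 0.951 and 0.534, and then 0.251 and 0.185.

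Against the mean log2 CPM of all 9 epithelial markers, which include 4 keratins, Cldn2 and Cldn6 were again higher in both K-Ras Mll4-/- libraries, by 1.64 and 1.66. Cldn18, Cldn7 and Cldn12 were then lower in both K-Ras Mll4-/- libraries, by -0.23, -0.29 and -0.79. For Cldn18 the nearest values of the groups, 1.28 and 1.26, differed by little, and K-Ras replicate 1 stood high at 1.69. Of the 5 claudins that were higher in CPM, 3 were thus on the lower side of this measure, and the side on which Cldn18 fell depended on the marker it was set against. Cldn3, Cldn4 and Cldn23 were lower by -2.16, -2.29 and -2.93. No test was made of these ratios.

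**Figure D4:**
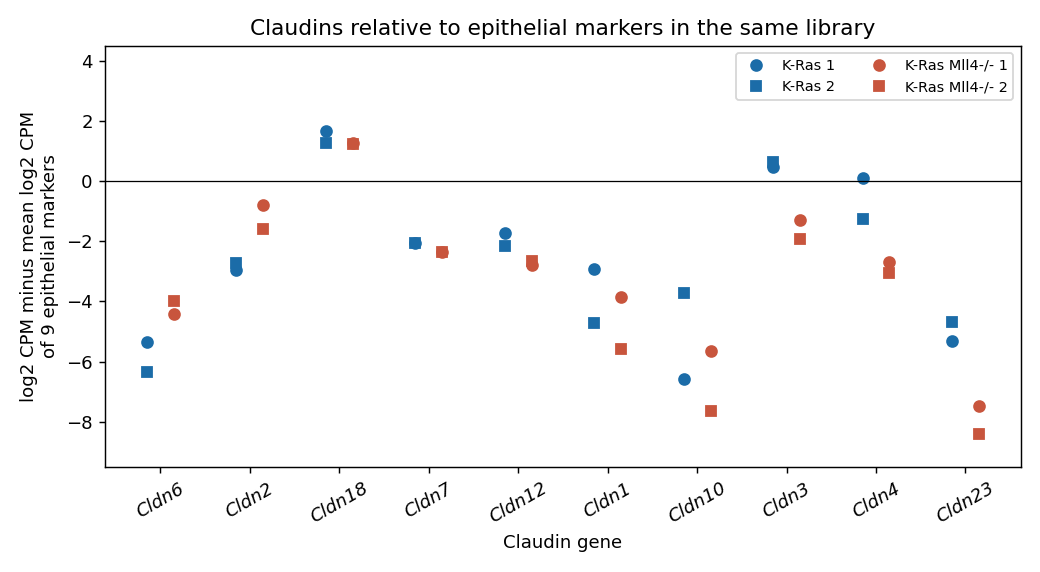
Log2 CPM of each claudin minus the mean log2 CPM of 9 epithelial markers in the same library; blue marks are K-Ras, red marks are K-Ras Mll4-/-, circles are replicate 1 and squares replicate 2. Cldn6 and Cldn2 are higher in both red libraries (by 1.66 and 1.64), Cldn3, Cldn4, Cldn23 and Cldn12 are lower in both, and Cldn18 and Cldn7 are lower by a small margin (-0.23 and -0.29).

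Airway markers were uneven between the K-Ras libraries. Their counts are set beside the 28.5% of all tested genes that were lower in both K-Ras Mll4-/- libraries. Markers of club cells, secretory cells of the airway, summed to 1160 and 4751 CPM in the K-Ras libraries and to 970.4 and 720.3 CPM in the K-Ras Mll4-/- libraries, with 3 of 5 lower in both of the latter. Markers of ciliated cells summed to 139 and 784 CPM and then to 79.3 and 81.9 CPM, with 7 of 7 lower in both K-Ras Mll4-/- libraries. DESeq2 called 3 of the 5 club and 6 of the 7 ciliated markers lower, against 10.0% of all tested genes, 4.98% lower. The edgeR likelihood ratio test called 2 and 5 of them lower, against 9.39% of all tested genes. The edgeR quasi-likelihood test and limma-voom called none of them. K-Ras replicate 2, which held the most of both club and ciliated markers, also had the highest values of Cldn3, Cldn10 and Cldn23. K-Ras replicate 2 also had the highest sums of alveolar type 2 markers (30530 CPM) and alveolar type 1 markers (1771 CPM) of the 4 libraries. The next highest alveolar sums were close, at 26286 and 1682 CPM in K-Ras Mll4-/- replicate 2. For club and ciliated markers the next highest sums were far lower, at 1160 and 139 CPM in K-Ras replicate 1. By mean log2 CPM, alveolar type 1 markers were highest in K-Ras Mll4-/- replicate 1 (7.02, against 6.82 in K-Ras replicate 2). What airway cells contribute to Cldn3, Cldn10 and Cldn23 was not tested. Leaving K-Ras replicate 2 out, as given above, removes all that differs in that library and so cannot single out airway cells.

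Of all tested genes, 28.5% were lower and 29.9% higher in both K-Ras Mll4-/- libraries. DESeq2 called 10.0% of all tested genes and the edgeR likelihood ratio test 9.39%. Beside these shares, the other marker lists gave the following sums in the K-Ras and then the K-Ras Mll4-/- libraries. Endothelial markers summed to 6516 and 6251 CPM and then to 4060 and 3226 CPM, with 5 of 7 lower in both K-Ras Mll4-/- libraries. DESeq2 called 5 of the 7 lower and the edgeR likelihood ratio test 3. Fibroblast markers summed to 2467 and 1124 CPM and then to 838 and 853 CPM, with 6 of 7 lower in both K-Ras Mll4-/- libraries. DESeq2 and the edgeR likelihood ratio test each called 1 of the 7, Pdgfra, lower. Leukocyte markers summed to 645 and 259 CPM and then to 541 and 307 CPM, so they were present after depletion. The groups overlapped in this sum and in 5 of the 6 markers. Itgam, an integrin gene of myeloid cells, was at 63.3 and 26.9 CPM and then at 17.3 and 13.4 CPM, and DESeq2 and the edgeR likelihood ratio test called it lower. Alveolar type 1 markers summed to 1287 and 1771 CPM and then to 1673 and 1682 CPM, a sum that overlapped while its members lay on both sides: 3 of 7 were higher and 2 lower in both K-Ras Mll4-/- libraries. DESeq2 and the edgeR likelihood ratio test called Aqp5, a water channel gene, higher and Ager lower. Mesothelial markers summed to 21.8 and 22.6 CPM and then to 124 and 224 CPM, and Msln, which is also known from epithelial tumours, took 120.3 and 221 CPM of the latter. Msln was called higher by DESeq2 and the edgeR likelihood ratio test. None of the other 4 mesothelial markers was higher in both K-Ras Mll4-/- libraries. Upk1b was lower in both K-Ras Mll4-/- libraries, at 6.93 and 4.31 CPM and then at 2.74 and 2.20 CPM, Upk3b and Lrrn4 overlapped, and Wt1 had between 2 and 5 reads in each library. Red blood cell markers summed to 31.7 and 7.11 CPM and then to 14.7 and 20.7 CPM, with Hba-a1 and Hbb-bs at 0 reads in all 4 libraries. Reads aligned to more than 1 place were not counted for genes, so these 0 values do not show that globin RNA was absent. The edgeR quasi-likelihood test and limma-voom called no gene of these lists, and 0.0375% and 0.0% of all tested genes. The part of these cell types in the claudin differences was not tested.

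Among 18 further claudins, 6 passed the filter and 0 were called by the edgeR quasi-likelihood test. Of the 6, 2 had an unadjusted p under 0.05, both lower, against 21.8% of all tested genes, 10.4% lower. The groups did not overlap in 3 of the 6, all lower, against 58.3% of all tested genes, 28.5% lower. DESeq2 called Cldn5, where it called 10.0% of all tested genes. The edgeR likelihood ratio test called Cldn5 and Cldn8, where it called 9.39% of all tested genes, and limma-voom called 0. Cldn5 was at 231 and 332 CPM in the K-Ras libraries and at 162 and 121 CPM in the K-Ras Mll4-/- libraries, and its fitted log2 difference was -0.99 with SE 0.26 (edgeR adjusted p = 0.177). It lay on the same side as the endothelial markers, whose median log2 fold change was -0.74 with Cldn5 counted among them. Cldn8, a claudin of tight epithelia such as the distal nephron, was at 0.981 and 3.18 CPM and then at 0.457 and 0.403 CPM (log2 fold change -2.27, SE 0.71, edgeR adjusted p = 0.195). Cldn15, Cldn20, Cldn22 and Cldn34c1 had between 5 and 58 reads in each library, and their edgeR adjusted p lay between 0.418 and 0.819. Cldn16, Cldn17, Cldn34a, Cldn34b1 and Cldn34d had 0 reads in all 4 libraries, which allows up to 3 reads each.

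Genes that build the rest of the tight junction were compared in the same fit, and the median size of their log2 fold changes without sign was 0.50. Of 22 such genes, all passed the filter, 0 were called by the edgeR quasi-likelihood test, and 7 had an unadjusted p under 0.05, 6 higher and 1 lower, against 21.8% of all tested genes, 11.4% higher and 10.4% lower. DESeq2 called 2 of the 22, Lsr and Magi1, a share near the 10.0% it called of all tested genes, the edgeR likelihood ratio test called 1, Lsr, and limma-voom called 0. Their median log2 fold change was 0.40, and 14 were higher and 5 lower without overlap, against 29.9% and 28.5% of all tested genes. Lsr, the angulin at the corners where 3 cells meet, had the smallest p-value. It was at 58.6 and 70.8 CPM in the K-Ras libraries and at 102 and 127 CPM in the K-Ras Mll4-/- libraries (log2 fold change 0.83, SE 0.18, edgeR adjusted p = 0.156). Magi1, a junctional scaffold, was at 103 and 104 CPM and then at 146 and 170.5 CPM (log2 fold change 0.61, edgeR adjusted p = 0.163). Mpdz, a scaffold with many PDZ domains that binds claudin tails, was the gene on the lower side, at 59.1 and 58.1 CPM and then at 42.2 and 34.5 CPM (log2 fold change -0.61, edgeR adjusted p = 0.168). Mpp5, a polarity scaffold also named Pals1, Marveld2 (tricellulin) and Cgnl1 (paracingulin) had log2 fold changes of 0.52, 0.76 and 0.80 (edgeR adjusted p = 0.202, 0.209 and 0.214). Tjp1, which encodes the scaffold ZO-1, was at 634 and 733 CPM and then at 535 and 594 CPM, and Ocln, which encodes occludin, was at 38.0 and 61.1 CPM and then at 61.6 and 82.8 CPM. Neither reached an unadjusted p under 0.05.

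Genes with profiles nearest to those of Cldn6 and Cldn2 were found by the root mean square difference of mean-centred log2 CPM over the 4 libraries. Nearest to Cldn6 were Sh3rf2, a gene of a RING and SH3 domain protein (difference 0.15), Cadm4, a cell adhesion gene (0.16), and Wnt7a, a Wnt ligand gene (0.19). Sh3rf2 was at 3.92 and 4.56 CPM in the K-Ras libraries and at 26.4 and 42.4 CPM in the K-Ras Mll4-/- libraries. Nearest to Cldn2 were Car9, a carbonic anhydrase gene (difference 0.12), Crh, the gene of corticotropin-releasing hormone (0.18), and Guca2a, the gene of the gut peptide guanylin (0.23). Car9 was at 1.41 and 2.63 CPM and then at 17.7 and 14.6 CPM, while Crh and Guca2a stayed at or below 1.18 CPM in all 4 libraries. Over 4 libraries in 2 groups, nearness is a description only.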

How the data were processed

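RNA sequencing of 4 mouse lung tumour libraries was analysed from the deposited raw counts of reads per gene symbol. Per the submitters' processing notes, the tools were CASAVA 1.4, STAR and HTSeq and the build was mm9. Versions of STAR and HTSeq, the annotation and the strand setting are not given in the sources used here. Reads aligned to more than 1 place were tallied apart from genes by the authors' counting (31.5% to 36.7% of all reads), as were reads in no gene (24.1% to 26.7%), so near-identical genes are undercounted.

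Groups and replicate numbers are those of the titles. No batch is named in the labels. All 4 libraries were fitted with edgeR 4.0.16 in R 4.3.3 (default filterByExpr, TMM, robust quasi-likelihood test, K-Ras Mll4-/- minus K-Ras, Benjamini-Hochberg over all 16001 tested genes, called at an adjusted p under 0.05). The SE is the log2 fold change divided by the square root of F. Log2 CPM used a prior count of 2. Lengths came from GENCODE M21 and promoter windows and neighbours from RefSeq (GRCm38.p6), whose build differs from the submitters'. Alternatives used limma 3.58.1, DESeq2 1.42.0 and mgcv 1.9.3, other scalings and filters, a replicate block, GC and length offsets (15856 tested genes had both), and leaving out each library. The fits were also run on simulated counts, with the same spread set for every gene. That setting is simpler than these data, so it does not bear on which of the differing calls is right.

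The members and gene lists (tight junction partners, other claudins, markers of 10 cell types) were chosen with earlier results of these data known. Named genes were the members, the other claudins, up to 6 partners by p, Kmt2d, and the 3 nearest profiles of the 2 members with the largest fold changes. Further genes of the lists were named after their values were seen.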

Additional observations from a re-analysis of the deposited data

How the results depend on the processing

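Against 6 genes and 0 claudins called in the main fit, fits without a count filter called 44 genes and 1 claudin (Cldn6), DESeq2 called 1601 and 5, the edgeR likelihood ratio test 1503 and 5, and limma-voom 0 and 0. Leaving out single libraries gave between 0 and 528 genes and between 0 and 2 claudins, and the highest values of both came without K-Ras replicate 1. Those fits assume that the lone library of a group varies like the other group. Of the tight junction partners, 0 were called in the main fit, 2 by DESeq2, 1 by the likelihood ratio test and 0 with any single library left out. The samples share replicate numbers, but nothing says what a number stands for, and with 2 pairs the correlation of deviations between same-numbered samples (0.21 across genes) does not settle the pairing. With the replicate number as a block, 217 genes and 1 claudin (Cldn6) were called, and with the replicate block and GC and length offsets together 406 genes, 3 claudins (Cldn6, Cldn7 and Cldn18) and 2 partners. Over all 15 alternatives, the sign of the log2 fold change turned only for Cldn1 (-0.28 without K-Ras Mll4-/- replicate 1) and Cldn10 (2.07 without K-Ras replicate 2), and with single libraries left out they ranged from -0.28 to 1.20 and from -1.89 to 2.07. With the second longest transcript of Cldn18, chosen after seeing the data, the mean log2 ratio of Cldn18 to Cldn3 per length in K-Ras tumours was 0.45, against -0.80. The cause of these changes was not tested. Depth was ample for all claudins but Cldn6, Cldn10 and Cldn23, which had under 100 reads in at least 1 library.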
